A study of Caenorhabditis elegans with 6 samples.

Results

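Neuropeptide signalling was examined through 10 genes of the worm. These were the 6 precursor genes *flp-1*, *flp-9*, *flp-14*, *nlp-9*, *nlp-15* and *nlp-21*, and the 4 genes *egl-3*, *egl-21*, *sbt-1* and *pgal-1*, whose products act in cutting, trimming or finishing the peptides. The genes were set by a list of names, and all 10 were found by their sequence names among the 17682 genes of the files. The 6 libraries came from 3 batches of sterile hermaphrodites of strain TJ1060, whose alleles *fem-15(b26)* and *spe-9(hc88)* both treatments share and make the worms sterile at 25°C. The batches, each of about 10000 animals, grew at that temperature and were split between the treatments when adulthood began, on day 1. One portion was fed bacteria making double-stranded RNA against *unc-62*, a homeodomain co-factor of HOX proteins (*unc-62* RNAi), and the other was fed bacteria with the empty vector (control RNAi). Both were kept at 20°C for 3 days and collected on day 4 as whole worms, with 3 libraries per treatment.

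Worm neuropeptides are made as larger precursor proteins that carry 1 or several copies of short peptides between basic cleavage sites. EGL-3, a proprotein convertase related to PC2, cuts at these sites, and SBT-1, a relative of the mammalian chaperone 7B2, helps it to become active. EGL-21, a relative of carboxypeptidase E, then removes the basic residues left at the end of each piece, and a monooxygenase and a lyase, which PGHM-1 and PGAL-1 supply, amidate peptides that end in glycine. FLP precursors give FMRFamide-like peptides, NLP precursors give other neuropeptide-like peptides, and the finished peptides leave neurons and some other cells from dense-core vesicles. In whole worms neurons are a small part of the tissue, and fewer cells of a type cannot be told apart from less RNA per cell.

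By totals worked out from the deposited values, the libraries held between 17124802 and 22868980 uniquely mapped reads upon *unc-62* RNAi and between 15188765 and 21463842 in control RNAi. Levels are given as RPM, the reads of a gene scaled to the uniquely mapped reads of its library. Reads of these libraries come from the 3′ end of a transcript, so RPM was not divided by transcript length. The targeted gene itself was poorly covered, with 17, 39 and 25 reads upon *unc-62* RNAi, against 27, 31 and 26 reads in control RNAi, and did not pass the test (log2 fold change -0.28, adjusted p = 0.739). The 6 *vit* genes, which encode yolk proteins made in the intestine, all fell upon *unc-62* RNAi, with log2 fold changes from -6.87 for *vit-1* to -2.47 for *vit-2* (limma, adjusted p from 0.0107 to 0.0758). No gene at all was called without replicate 1 or without replicate 2. The 3 *unc-62* RNAi libraries were sequenced in 1 lane and the 3 control RNAi libraries in another, and lane and treatment cannot be told apart.

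The 10 genes spanned about 2 orders of magnitude. In *unc-62* RNAi libraries the order by mean level ran from *egl-21* at 18.8 RPM and *flp-14* at 15.8 RPM through *nlp-21*, *sbt-1*, *pgal-1*, *egl-3* and *flp-1* to *flp-9*, *nlp-15* and *nlp-9*, the lowest at 0.187 RPM. In control RNAi libraries *flp-14* at 22.1 RPM stood above *egl-21* at 18.5 RPM, and the other 8 genes kept the same order. The ranges of *egl-21* and *flp-14* overlapped in both treatments, so their exchange of places is within the spread. Neighbours whose ranges did not overlap upon *unc-62* RNAi were *flp-14* and *nlp-21*, *nlp-21* and *sbt-1*, *pgal-1* and *egl-3*, and *flp-1* and *flp-9*. In control RNAi these were *egl-21* and *nlp-21*, and *egl-3* and *flp-1*. By mean over the 6 libraries *flp-14* and *egl-21* stood above 90.9% and 90.8% of the 15707 genes with a read, *egl-3* above 61.6%, and *nlp-9* above 37.4%.

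**Figure D1:**
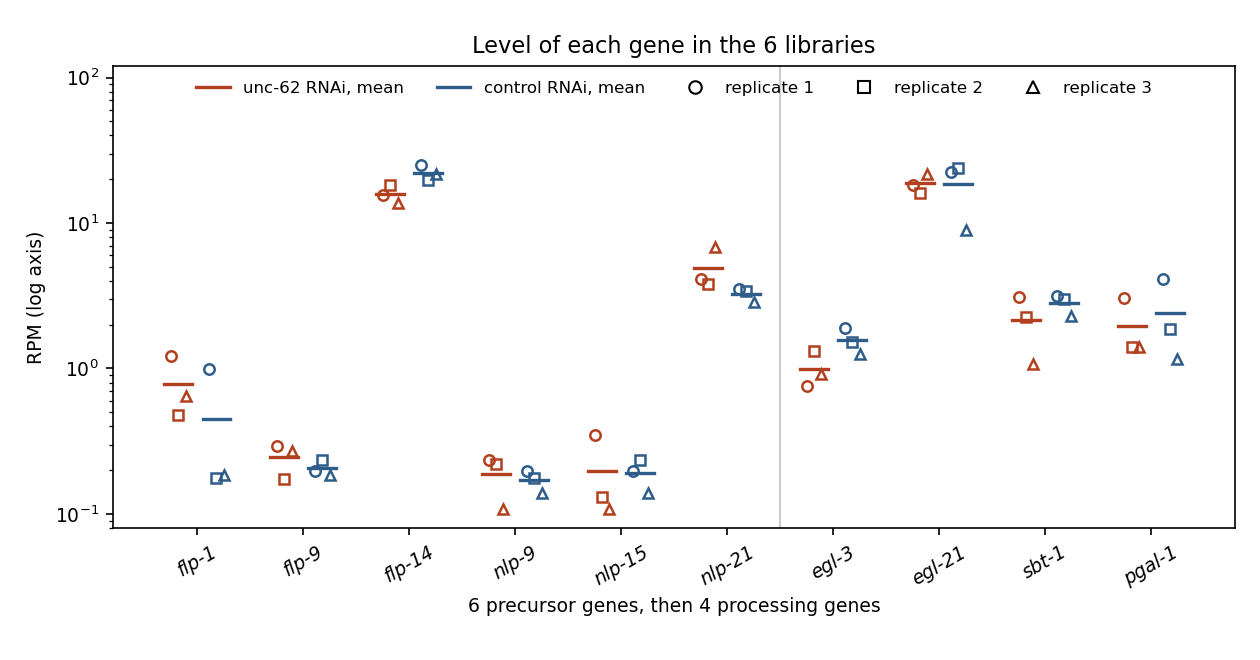
RPM (log axis) of the 6 precursor genes and the 4 processing genes in each library, with *unc-62* RNAi left of control RNAi for each gene; symbols mark the replicates and bars the means (n = 3). The *flp-14* points of *unc-62* RNAi (13.6 to 18.2 RPM) lie below those of control RNAi (19.8 to 24.9 RPM), the *egl-21* point of control replicate 3 (8.99 RPM) lies below its other 5 points, and *flp-9*, *nlp-9* and *nlp-15* stay below 0.36 RPM.

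None of the genes that could be tested changed by the test. Genes with at least 10 reads in all 3 libraries of either treatment were tested with limma on log2(RPM + 0.05), with the replicate as a block, and 7 of the 10 passed this filter, all 4 processing genes and the precursors *flp-1*, *flp-14* and *nlp-21*. None was called at an adjusted p under 0.1, and *flp-1* alone had an unadjusted p under 0.05. Across all 7333 genes tested 96 were called (1.31%), 36 higher and 60 lower, and 344 higher and 640 lower had an unadjusted p under 0.05, so no call among 7 genes is what the background share gives. edgeR and DESeq2 on the whole reads, and rank products of fold changes within replicates, also called 0 of the 7.

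*flp-14*, the most abundant of the precursors, had 15.7, 18.2 and 13.6 RPM in the 3 *unc-62* RNAi libraries, from 268, 415 and 252 reads. The 3 control RNAi libraries had 24.9, 19.8 and 21.6 RPM, from 378, 338 and 464 reads. Every *unc-62* RNAi library was below every control RNAi library, as deposited and after TMM scaling. The means were 15.8 ± 2.27 RPM upon *unc-62* RNAi and 22.1 ± 2.59 RPM in control RNAi (SD, n = 3 each), a log2 fold change of -0.52 with a standard error of 0.22 that did not pass the test (limma, adjusted p = 0.411). Its 95% interval ran from -1.07 to 0.04, so a drop to below a level of 0.5 times control and no change at all both remain within it. Within replicates 1, 2 and 3 the log2 fold change was -0.70, -0.21 and -0.65.

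*nlp-21* had 4.15, 3.80 and 6.81 RPM upon *unc-62* RNAi, against 3.49, 3.39 and 2.84 RPM in control RNAi. The *unc-62* RNAi libraries were all higher as deposited, with replicate 3 apart from the other two, but the ranges overlapped after TMM scaling. The means were 4.92 ± 1.65 RPM upon *unc-62* RNAi and 3.24 ± 0.349 RPM in control RNAi (SD, n = 3 each). The log2 fold change of 0.52 had a 95% interval of -0.26 to 1.31 (limma, adjusted p = 0.58). Replicate 3 gave 1.27 and replicates 1 and 2 gave 0.22 and 0.08, so the size of the difference rested on replicate 3.

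*flp-1*, whose peptides act on locomotion, was covered by 21, 11 and 12 reads upon *unc-62* RNAi and by 15, 3 and 4 reads in control RNAi. These were 1.23, 0.481 and 0.649 RPM upon *unc-62* RNAi, against 0.988, 0.175 and 0.186 RPM in control RNAi, and the ranges overlapped because control replicate 1 was high. The log2 fold change was 1.01 with a 95% interval of 0.02 to 2.0 (limma, adjusted p = 0.36). It passed the filter only through its *unc-62* RNAi libraries, so a higher level there was a condition of its being tested and is not support for a difference. Summed over libraries it had 44 reads upon *unc-62* RNAi and 22 in control RNAi, a ratio per uniquely mapped read of 1.84 with a 95% interval of 1.08 to 3.22. Such intervals on summed reads cover counting error only, since reads copied by PCR are not independent molecules and the spread between worms is not in them.

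The other 3 precursors had few reads and were not tested. *flp-9* had 5, 4 and 5 reads upon *unc-62* RNAi and 3, 4 and 4 reads in control RNAi. *nlp-9* had 4, 5 and 2 reads upon *unc-62* RNAi and 3, 3 and 3 reads in control RNAi. *nlp-15* had 6, 3 and 2 reads upon *unc-62* RNAi and 3, 4 and 3 reads in control RNAi. The ranges of RPM overlapped for all 3 genes. The ratios of summed reads, *unc-62* RNAi over control RNAi, were 1.17 (95% counting interval 0.493 to 2.85) for *flp-9*, 1.12 (0.423 to 3.07) for *nlp-9* and 1.01 (0.390 to 2.66) for *nlp-15*. No difference was detectable for these genes at this depth.

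Of the processing genes, the convertase *egl-3* had 0.759, 1.31 and 0.919 RPM upon *unc-62* RNAi, from 13, 30 and 17 reads. In control RNAi it had 1.91, 1.52 and 1.26 RPM, from 29, 26 and 27 reads. The ranges overlapped as deposited, where *unc-62* RNAi replicate 2 exceeded control replicate 3, and did not overlap after TMM scaling. The means were 0.997 ± 0.284 RPM upon *unc-62* RNAi and 1.56 ± 0.328 RPM in control RNAi (SD, n = 3 each). The log2 fold change was -0.67, with a 95% interval of -1.43 to 0.09 (limma, adjusted p = 0.441), and it was negative in each replicate, at -1.30, -0.29 and -0.42.

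Its chaperone *sbt-1* had 3.10, 2.27 and 1.08 RPM upon *unc-62* RNAi, against 3.16, 2.98 and 2.28 RPM in control RNAi. Only the libraries of replicate 3 lay well apart, and the ranges overlapped. The log2 fold change was -0.52, with a 95% interval of -1.20 to 0.16 (limma, adjusted p = 0.511), and within replicates 1, 2 and 3 it was -0.06, -0.47 and -1.03.

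The carboxypeptidase *egl-21* was the processing gene with the highest level, at 18.3, 16.2 and 21.7 RPM upon *unc-62* RNAi, against 22.5, 24.03 and 8.99 RPM in control RNAi. Control replicate 3 was below the other 5 libraries. The means were 18.8 ± 2.80 RPM upon *unc-62* RNAi and 18.5 ± 8.28 RPM in control RNAi (SD, n = 3 each), and the log2 fold change was 0.10 with a 95% interval of -1.0 to 1.2 (limma, adjusted p = 0.952). It was -0.32 and -0.65 in replicates 1 and 2 and 1.29 in replicate 3. Without replicate 3 the log2 fold change was -0.47, with an adjusted p of 0.166 by limma, so the sign of this value was set by that replicate.

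The lyase *pgal-1* had 3.04, 1.40 and 1.41 RPM upon *unc-62* RNAi, against 4.15, 1.87 and 1.17 RPM in control RNAi. Replicate 1 was the highest in both treatments, and the ranges overlapped over most of their length. The log2 fold change was -0.23 with a 95% interval of -0.88 to 0.43 (limma, adjusted p = 0.761).

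**Figure D2:**
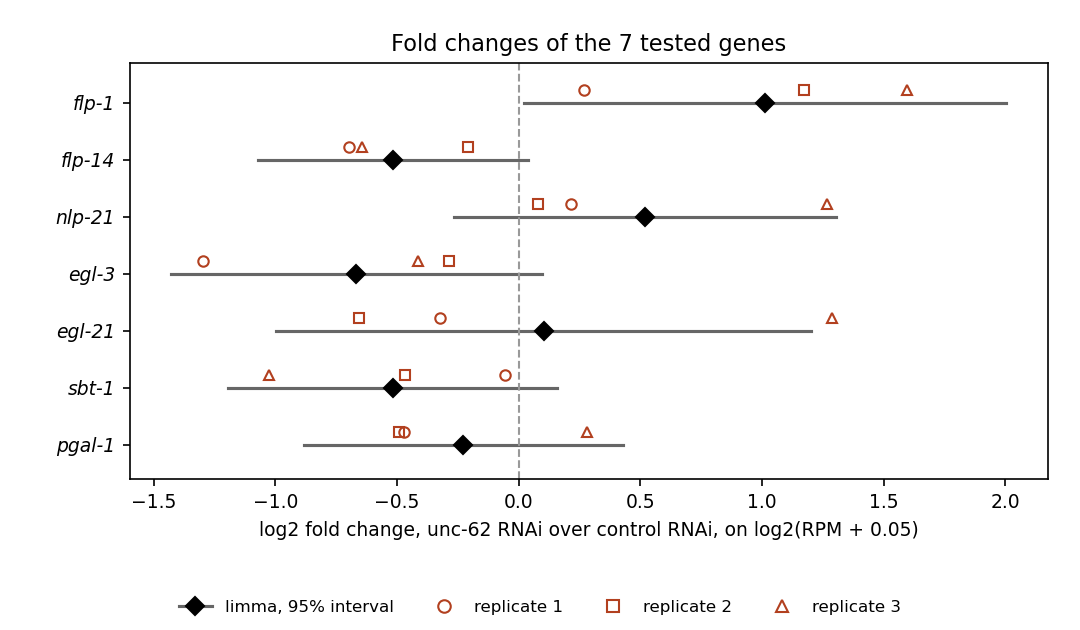
Log2 fold change, *unc-62* RNAi over control RNAi, of the 7 tested genes, on log2(RPM + 0.05) after TMM scaling. Diamonds are limma estimates, lines their 95% intervals, and open symbols the fold change within each replicate. Every interval includes 0 except that of *flp-1* (0.02 to 2.0), which passed the filter only through *unc-62* RNAi and was not called (limma, adjusted p = 0.36). The replicate 3 value of *egl-21* (1.29) lies on the other side of 0 from those of replicates 1 and 2.

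The groups were also set side by side without a variance model. The ranges of RPM as deposited did not overlap between the treatments for 2 of the 7 tested genes, *nlp-21* (higher) and *flp-14* (lower), against 13.4% of all genes tested. On the TMM scale the genes without overlap were instead *flp-14* and *egl-3*, both lower, and the share over all genes is not given there. After TMM scaling the direction was the same in all 3 replicates for 5 of the 7, against 36.2% of all genes tested. It was higher for *flp-1* and *nlp-21* and lower for *flp-14*, *egl-3* and *sbt-1*. With 7 genes, of which 1 passed the filter on 1 side only, these shares are descriptions. The replicates themselves differed in spread, with a standard deviation of the log2 fold change over all genes tested of 0.66, 0.70 and 1.23 in replicates 1, 2 and 3.

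Summed over the 6 precursors the level was 21.9, 23.0 and 21.6 RPM upon *unc-62* RNAi, against 29.96, 23.98 and 25.1 RPM in control RNAi, and *flp-14* made up 78.2% of this sum. Over the 4 processing genes it was 25.2, 21.2 and 25.1 RPM upon *unc-62* RNAi, against 31.7, 30.4 and 13.7 RPM in control RNAi, with 75.9% from *egl-21*. Each sum therefore follows its most abundant gene, and no test was made on them. The difference of the processing sums, *unc-62* RNAi minus control RNAi, was -1.44 RPM, and it was 1.09 RPM without replicate 1, 2.46 RPM without replicate 2 and -7.88 RPM without replicate 3. That of the precursor sums was -4.21 RPM, and -5.80 to -2.28 RPM without each replicate.

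Where several transcripts were listed for a gene, the one with the highest mean was used. For *egl-3* this was transcript b, and transcripts a.1 and a.2 had 0, 4 and 3 reads each upon *unc-62* RNAi and 3, 10 and 5 reads each in control RNAi. For *flp-1* transcript a was used, and transcript c had 1, 3 and 4 reads upon *unc-62* RNAi and 1, 0 and 0 reads in control RNAi. In a later annotation, WBcel235, no model of the 10 genes overlaps another protein-coding gene on its strand. *flp-1*, *nlp-21*, *sbt-1* and *pgal-1* overlap a gene on the other strand, and the counted reads were those of the sense strand.

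The wider pathway was covered by lists of other precursors, processing enzymes, vesicle genes, receptors and peptidases, with 251 genes in the files. Few of these genes were tested, 46 in all, and none was called. An unadjusted p under 0.05 was reached by 8 of the 46, against 13.4% of all genes tested. Without replicate 3, the replicate with the widest spread, 12 of the 46 were called, against 15% of all genes tested in the same fit. Of these 12, *flp-18* was at -0.998, *nlp-41* at -0.71, *nlp-99* at -0.81, *ins-24* at -0.97, *ins-30* at -1.06 and *ins-19* at 1.695 on the log2 scale without replicate 3, and the other 6 are given with their lists. *ins-19* passed the filter only through *unc-62* RNAi and *nlp-2* only through control RNAi, each the side where it was higher. Both are among the 8 and among the 12, so these counts are descriptions. Of 80 receptor genes for neuropeptides 17 had no read in any library and 2 were tested. Of 13 genes for dense-core vesicles 3 were tested, and of 24 neprilysin-like peptidases, which degrade peptides outside cells, 2 were tested.

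**Figure D3:**
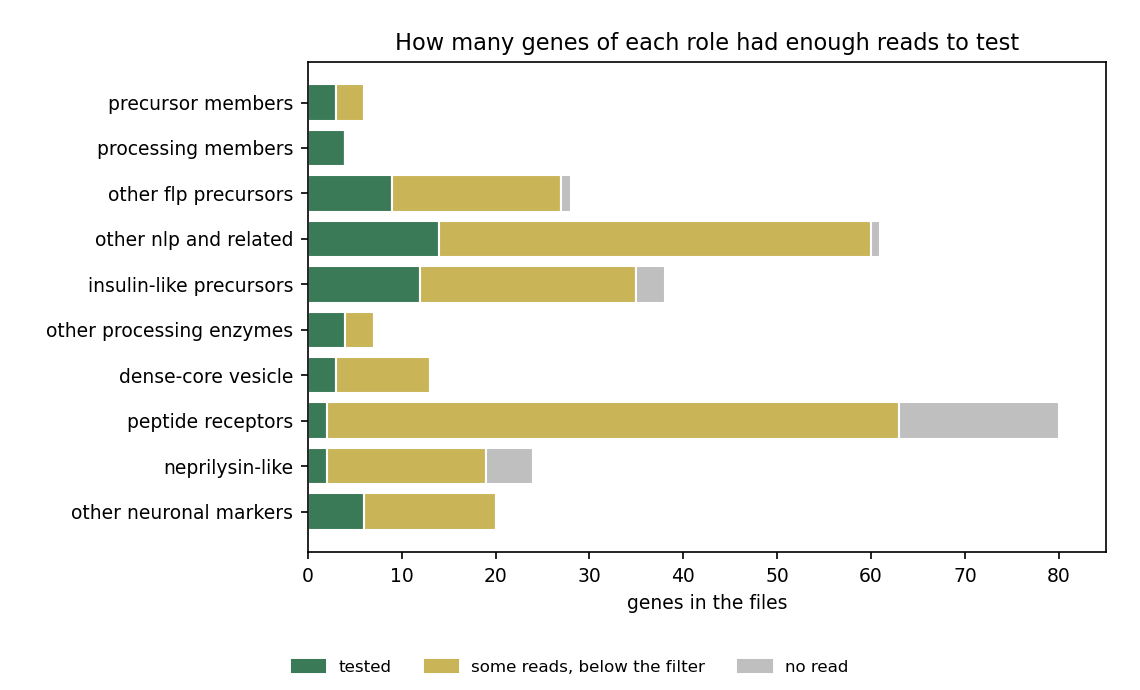
Number of genes of each role in the files, divided into those tested, those with reads but below the filter, and those with no read. Receptors make up the longest bar (80 genes) with 2 tested, while all 4 processing genes described here were tested.

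Among 28 other *flp* precursors 9 were tested, 5 higher and 4 lower in estimate, with a median log2 fold change of 0.01, against 0.03 over all genes tested. *flp-15* had the highest level of them and the lowest fold change, with 6.67 ± 0.662 RPM upon *unc-62* RNAi and 9.35 ± 0.658 RPM in control RNAi (SD, n = 3 each; log2 fold change -0.52, adjusted p = 0.369). *flp-12* and *flp-28*, next in level, had log2 fold changes of 0.05 and 0.01, and *flp-33* had the highest, at 0.28 (adjusted p = 0.809).

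Among 61 other *nlp* and related precursors 14 were tested, 7 higher and 7 lower in estimate, with a median of 0.04. Some passed the filter on 1 side only, *nlp-13* and *nlp-49* through *unc-62* RNAi and *nlp-80*, *pdf-1* and *nlp-2* through control RNAi. Each of these was higher on that side, so the counts and the median of the list are descriptions. The 3 most abundant over the 6 libraries were *nlp-39*, *nlp-40* and *nlp-36*, the last through 1 library. *nlp-12*, close behind with 21.5 RPM upon *unc-62* RNAi and 25.2 RPM in control RNAi, had a log2 fold change of -0.25. *nlp-39* had 1090, 1377 and 2164 reads upon *unc-62* RNAi, against 525, 610 and 791 reads in control RNAi, with means of 80.3 ± 31.8 RPM upon *unc-62* RNAi and 35.7 ± 1.14 RPM in control RNAi (SD, n = 3 each; log2 fold change 1.07, adjusted p = 0.191). *nlp-40*, which encodes a peptide of the intestine that drives the defecation rhythm, had 64.9 ± 11.3 RPM upon *unc-62* RNAi and 43.2 ± 10.8 RPM in control RNAi (SD, n = 3 each; log2 fold change 0.57, adjusted p = 0.418). *nlp-36* had 12.4, 4.55 and 112.3 RPM upon *unc-62* RNAi, against 5.99, 3.10 and 4.66 RPM in control RNAi. Its log2 fold change of 2.03 was the highest of the list and had an adjusted p of 0.411, with *unc-62* RNAi replicate 3 far above the other 5 libraries. *nlp-2* had the lowest, at -1.08 (adjusted p = 0.228), and passed the filter only through control RNAi, where it was higher, so its values are a description. Without replicate 3 these values were 0.78 for *nlp-39* (limma, adjusted p = 0.00483), 0.76 for *nlp-36* (adjusted p = 0.0373) and -1.35 for *nlp-2* (adjusted p = 0.025), all past the threshold. That fit called 15% of all genes tested, while no gene was called without replicate 1 or without replicate 2.

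Among 38 insulin-like precursors 12 were tested, 8 higher and 4 lower in estimate, with a median of 0.09. *ins-28*, *ins-27* and *ins-11* were the most abundant over the 6 libraries, *ins-11* through its *unc-62* RNAi libraries; in control RNAi *ins-26* (8.92 RPM) and *ins-29* (7.195 RPM) were above it. *ins-11* had 347, 374 and 474 reads upon *unc-62* RNAi, against 73, 132 and 45 reads in control RNAi, and every *unc-62* RNAi library was higher. Its means were 20.8 ± 4.65 RPM upon *unc-62* RNAi and 4.87 ± 2.81 RPM in control RNAi (SD, n = 3 each), and its log2 fold change of 2.21 (standard error 0.52) was the highest of all 46 pathway genes tested. It did not pass the limma test with the replicate as a block (adjusted p = 0.174). Nor was it called by edgeR, with other pseudocounts or scalings, with a mean of at least 1 RPM, or without replicate 1 or 2. With no replicate block it passed (adjusted p = 0.0976, with 1.8% of all genes tested called). With no block and a library left out, it was called only without control RNAi replicate 2. DESeq2 on the reads called it (adjusted p = 0.00678, 4.01%), as did limma with no filter on low values (adjusted p = 0.0588, 1.62%). Rank products called it among 182 of the 7333 genes. Without replicate 3, where 15% of all genes tested were called, its log2 fold change was 1.54 (limma, adjusted p = 4.1e-05). *ins-28* and *ins-27* had log2 fold changes of -0.13 and 0.58, and *ins-37* had the lowest of the list, at -0.51 (adjusted p = 0.657).

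The other enzymes of the pathway were 7 genes, of which 4 were tested. *pghm-1*, whose product acts on glycine-ended peptides just before PGAL-1, had 29, 20 and 40 reads upon *unc-62* RNAi, against 64, 37 and 49 reads in control RNAi. Its means were 1.58 ± 0.652 RPM upon *unc-62* RNAi and 2.89 ± 1.15 RPM in control RNAi (SD, n = 3 each; log2 fold change -0.91, adjusted p = 0.343), with -1.32, -1.34 and -0.06 in replicates 1, 2 and 3. Without replicate 3 it was -1.31 and past the threshold (limma, adjusted p = 0.00286), in a fit that called 15% of all genes tested. Without replicate 1 or without replicate 2 no gene was called. The convertase *kpc-1* had the highest log2 fold change of this list, at 0.36 (adjusted p = 0.587). Of the vesicle genes *unc-108*, a RAB2 GTPase, had 0.23 and *ric-7* had -0.47, and the receptors tested were *dmsr-3* at 0.61 and *npr-30* at 0.35. The peptidases tested were *nep-17* at 1.6 (adjusted p = 0.271, and 0.93 with an adjusted p of 0.0141 without replicate 3) and *nep-1* at -0.70 (adjusted p = 0.417), which passed the filter only through control RNAi.

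**Figure D4:**
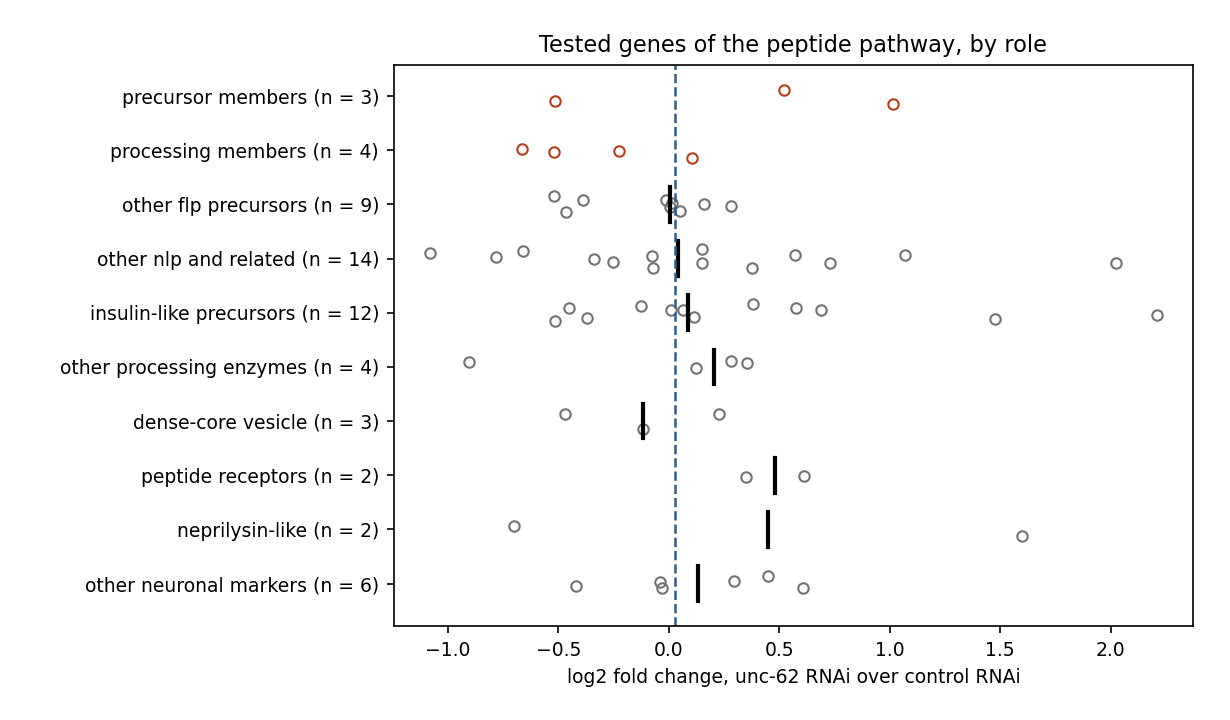
Log2 fold change, *unc-62* RNAi over control RNAi, of the tested genes by role (points), with the median of each list (black bar; none is drawn for the 2 top rows) and the median of all 7333 genes tested (dashed line, 0.03). No gene shown was called. The points farthest to the right are *ins-11* (2.21) and *nlp-36* (2.03).

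Profiles over the 6 libraries were compared with those of 58 other tested genes, from the 10 genes and the pathway and neuron lists, by the root mean square distance of log2 RPM after each gene was centred on its mean. The nearest gene was *unc-33* for *flp-14* (distance 0.19) and for *egl-3* (0.21), *flp-33* for *egl-21* (0.21), *nlp-40* for *nlp-21* (0.22), *pdf-1* for *sbt-1* (0.25), *snb-1* for *pgal-1* (0.28) and *nlp-49* for *flp-1* (0.54). The median distance to all 58 ran from 0.54 for *flp-14* to 0.94 for *flp-1*. A nearest gene lies below that median by the way it is picked, so all these distances are descriptions. *flp-1* and *nlp-49* both passed the filter only through *unc-62* RNAi, where both were higher. Their likeness was therefore partly set by the filter and is a description. *pdf-1* passed the filter only through control RNAi.

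Other genes of neurons were also read. Of 20 neuron markers in the files, none of them a peptide gene, 6 were tested and none was called. Their median log2 fold change was 0.13, from -0.42 for *unc-33* to 0.61 for *mec-12*. *mec-12* had 30, 23 and 16 reads upon *unc-62* RNAi, against 13, 30 and 5 reads in control RNAi. It passed the filter only through *unc-62* RNAi, where its mean was higher, so its value and its part in the median are a description. The summed level of the 20 markers ran from 28.4 to 50.1 RPM upon *unc-62* RNAi and from 29.1 to 44.7 RPM in control RNAi. Most of it came from *unc-64* and *snb-1* (means over the 6 libraries 11.8 and 10.7 RPM), while *rab-3*, *snt-1* and *ric-4* averaged 0.276, 0.261 and 0.279 RPM. Some markers of other tissues were called. The hypodermis genes *dpy-5* and *rol-6*, which act in making the cuticle, fell by 4.61 and 2.64 on the log2 scale (limma, adjusted p = 0.0681 and 0.0818), 2 of the 4 tested. The pharynx myosin *myo-2* fell by 2.27 (adjusted p = 0.0957), 1 of the 2 tested, against 1.31% of all genes tested. All 3 passed the filter only through control RNAi, where they were higher, so these calls are a description and not support for a change of the tissue, and they were absent without replicate 1 or without replicate 2. The other tested markers of these tissues were not called. In the hypodermis *col-19* was at -0.87 and *lin-26* at 0.37 (limma, adjusted p = 0.127 and 0.761), and in the pharynx *tnc-2* was at -0.05 (adjusted p = 0.961). None of the 9 intestine, 8 body wall muscle or 6 germ line markers tested was called, and no glia or coelomocyte marker was tested. The part of these differences in the values of the peptide genes was not tested.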

How the data were processed

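Whole worms were profiled by RNA-seq enriched for the 3′ ends of polyadenylated transcripts, from 400 ng of mRNA, with single reads of 36 bases. The submitters' processing notes name CASAVA 1.7.0 and Bowtie 0.12.7. The authors removed reads with 10 consecutive A or T bases, mapped the rest to WS215, kept uniquely mapping reads in the sense orientation, and deposited for each library a signal in RPM for 25531 transcripts. 2 identifiers that name no gene hold 0 reads. The uniquely mapped total of each library (15188765 to 22868980) was worked out as the number that makes its smallest non-zero value a single read. At these totals 100.0% of 153186 values were whole reads within 0.01. Everything else was computed here. The transcript with the highest mean stood for each gene, and symbols came from the RefSeq table for WBcel235, which holds 16959 of 17682 genes; no coordinates of it are printed.

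limma 3.58.1 (R 4.3.3) was fitted to log2(RPM + 0.05) after TMM scaling (edgeR 4.0.16), with a variance trend and the replicate number as a block, because the study takes fold changes within replicates. Genes with at least 10 reads in all 3 libraries of either treatment were tested (7333), with Benjamini-Hochberg adjustment over all of them and calls at 0.1. The fold changes keep that log2 scale, which understates those of low genes. Alternatives were no block, other pseudocounts (0.5, 0.01), scalings, filters and thresholds, edgeR, DESeq2 1.42.0, rank products (10000 permutations, 10% false positives) and leaving out replicates or libraries. limma and edgeR were also run on simulated counts with known fold changes and no replicate effect. Those runs cannot show how the fits handle replicates that differ in spread, as these do. Replicates are batches of worms. Compared without pairing, 3 against 3 libraries cannot give an exact p below 0.1. Intervals on ratios of summed reads are exact 95% intervals.

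The members and the gene lists were chosen with earlier results of these data known. The text names the 10 genes, called genes and the highest and lowest fold change of each pathway and marker list with tested genes, the 3 most abundant genes of each list of precursors, and the gene nearest in profile to each tested gene. The extremes of the marker lists of intestine, body wall muscle and germ line are not given. The *vit* genes, *nlp-12*, *ins-26*, *ins-29*, *col-19*, the other genes called without replicate 3 and the untested neuron markers were added after their values were seen.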

Additional observations from a re-analysis of the deposited data

How the results depend on the processing

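None of the 7 tested genes was called under any alternative that included it. *flp-1* fell below the filter on a mean of at least 1 RPM and has no value there. *flp-9*, *nlp-9* and *nlp-15* were kept out by both filters, so how their values depend on the processing is not shown. Over 132 alternative values of the 7 tested genes the lowest adjusted p was 0.166, for *egl-21* without replicate 3. The sign turned for 4 values. *egl-21* was at -0.47 without replicate 3, and with no replicate block it was at -0.091 without *unc-62* RNAi replicate 3 and at -0.31 without control RNAi replicate 3; *pgal-1* was at 0.13 with no replicate block without control RNAi replicate 1. Over all alternatives the log2 fold change ran from 0.50 to 1.61 for *flp-1*, -0.67 to -0.41 for *flp-14*, 0.17 to 0.74 for *nlp-21*, -0.90 to -0.34 for *egl-3*, -0.47 to 0.48 for *egl-21*, -0.74 to -0.18 for *sbt-1* and -0.59 to 0.13 for *pgal-1*. The difference of the summed RPM, *unc-62* RNAi minus control RNAi, ran from -5.80 to -2.28 for the precursors and from -7.88 to 2.46 for the processing genes without each replicate, the processing genes being positive without replicate 1 (1.09) or 2; scaling by TMM gave -4.51 and -1.62.

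The number of all genes called was 96 in the main analysis, 255 with no filter, 294 with DESeq2, 14 at an adjusted p under 0.05 and 182 by rank products. Without each replicate in turn it was 0, 0 and 1097, the last without replicate 3, and with no replicate block it was 132, and 24 to 112 without each library in turn (37 and 61 without *unc-62* RNAi replicates 1 and 3, 24 and 30 at the lowest for control RNAi libraries). Among the 46 pathway genes 0 were called, against 1, *ins-11*, with no replicate block, with no filter, with DESeq2 and with no replicate block without control RNAi replicate 2, and 12 without replicate 3, where *pghm-1* was at -1.31 (adjusted p = 0.00286). The cause was not tested. The block rests on the study's use of fold changes within replicates: deviations from the group means correlated at 0.42, 0.20 and -0.18 in replicates 1, 2 and 3, so the values do not by themselves pair the libraries. The fits without each library, and TMM factors from the uniquely mapped totals, were chosen after seeing the data. Depth limits *flp-9*, *nlp-9* and *nlp-15*, which had 2 to 6 reads in every library.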
